A study of Oryzias latipes with 6 samples.

Results

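In RNA from whole medaka embryos, 77 of 20459 gene IDs set the second pool apart from the other pools in both genotypes. Levels are given as CPM, the count of a gene per 1000000 counts of its library. A gene was included when its mean over the 6 libraries was at least 5 CPM and replicate 2 was at least 1.5-fold above, or at least 1.5-fold below, both other replicates in the knockout and again in the wild type. Of 14413 genes with a mean of at least 5 CPM, 11 were high in replicate 2 (0.0763%) and 66 were low in it (0.458%). These values chose the genes, so the levels of replicate 2 given here describe them and are not a test.

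The libraries came from 3 pools of embryos knocked out for SEDL and 3 pools of wild type embryos. All were of the Cab strain of medaka (Oryzias latipes), a small freshwater fish, and all were at stage 40, around the time of hatching. No treatment was applied, and sex was not determined. The knockout allele, the way it was made, the number of embryos in a pool and the clutches they came from are not stated in the labels used here. The labels number the pools 1 to 3 in each genotype and call them biological replicates, without saying what a number stands for. Nothing states that the pools came from separate clutches. The p-values therefore set the genotype difference against the spread among these libraries alone, and that spread may be technical.

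SEDL, now named TRAPPC2, codes for sedlin, which is part of the TRAPP complexes. These complexes tether vesicles on their way between the endoplasmic reticulum and the Golgi, and sedlin is known for its part in the export of procollagen. In humans, loss of sedlin causes a skeletal dysplasia. In RNA from pools of whole embryos, a level sums over all tissues, so fewer cells of a type and less RNA per cell cannot be told apart.

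Library totals ran from 18962836 to 23393540 counts in the knockout and from 18499107 to 22178480 in the wild type. The table gives Ensembl gene IDs, of which 0 matched a symbol, so the genes are described here by ID, level and behaviour, with no function. The level of the knocked-out gene and the markers of tissues could not be looked up for the same reason. Precision is limited by counts at the low end. The lowest count of any of the 77 genes in any library was 45, and 60 of them had at least 100 counts in every library.

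The 66 genes low in replicate 2 included some of high abundance. Together they took 1.16%, 0.329% and 0.799% of all counts in knockout replicates 1, 2 and 3, and 2.05%, 0.350% and 0.780% in wild type replicates 1, 2 and 3. Replicate 1 was therefore the highest and replicate 2 the lowest library in each genotype, with the widest difference between genotypes in replicate 1. Their 5 most abundant genes held 57.3%, 36.1% and 40.8% of that sum in the knockout libraries and 58.6%, 22.3% and 32.0% in the wild type libraries. With those 5 left out, the sum was 4958, 2099 and 4730 CPM in the knockout and 8480, 2717 and 5301 CPM in the wild type. The rule puts replicate 2 lowest in each of the 66 genes, so it is lowest in any such sum.

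The mean level of a gene low in replicate 2 ran from 5.86 to 1047 CPM, with a median of 29.1 CPM against 23.5 CPM for all genes of at least 5 CPM. Of the 66, 20 had a mean of at least 100 CPM (30.3%), against 9.79% of all genes of at least 5 CPM. The median gene stood 1.99-fold lower in replicate 2 than in the mean of replicates 1 and 3 in the knockout, and 1.99-fold lower in the wild type. On the log2 scale that difference ran from -3.00 to -0.61 in the knockout and from -6.71 to -0.65 in the wild type. It was further from 0 in the knockout for 22 genes and in the wild type for 44 genes, and in 50 genes the genotypes were less than 0.5 apart.

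Most of these genes passed the threshold narrowly. Taking for each gene the smallest of its 4 ratios, 58 lay between 1.5 and 2, 3 between 2 and 3, and 5 above 3. The gene just inside, with a smallest ratio of 1.5003, had 28.3, 7.95 and 16.4 CPM in knockout replicates 1, 2 and 3 and 111, 17.5 and 26.3 CPM in wild type replicates 1, 2 and 3. The gene just outside, at 1.4983, had 127, 75.4 and 113 CPM in the knockout and 264, 118 and 183 CPM in the wild type. A further 59 genes lay within 0.1 below the threshold beside that gene, and 29 of the 66 lay within 0.1 above it. The edge of the group is therefore a matter of the fold asked for, and no gap in the values marks it.

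The 5 genes with a smallest ratio of 3 or more were all abundant, with means between 216 and 1047 CPM. They had 235 to 1573 CPM in knockout replicate 1, 22.7 to 188 CPM in knockout replicate 2 and 72.1 to 817 CPM in knockout replicate 3. In wild type replicates 1, 2 and 3 they had 406 to 3171, 24.9 to 145 and 118 to 493 CPM. All 5 stood highest in replicate 1 and lowest in replicate 2 in each genotype. Their summed level was 3898, 554 and 2269 CPM in the knockout and 8713, 378 and 1520 CPM in the wild type.

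The largest smallest ratio belonged to ENSORLG00000017533. It had 1573, 164 and 817 CPM in knockout replicates 1, 2 and 3, against 3171, 93.6 and 463 CPM in wild type replicates 1, 2 and 3. Replicate 2 was thus the lowest library of each genotype, 4.98-fold below the nearest other in the knockout and 4.95-fold in the wild type. The ranges of the genotypes overlapped, and the widest spread was within the wild type. The other gene shown, ENSORLG00000000233, was the next most abundant of the 66. It had 2328, 336 and 592 CPM in knockout replicates 1, 2 and 3 and 2726, 14.3 and 253 CPM in wild type replicates 1, 2 and 3. Its low value in wild type replicate 2 rested on 307 counts, and it was 191-fold below wild type replicate 1, while knockout replicates 1 and 2 differed by 6.93-fold. The order of the pools was the same in each genotype for both of these genes.

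**Figure D1:**
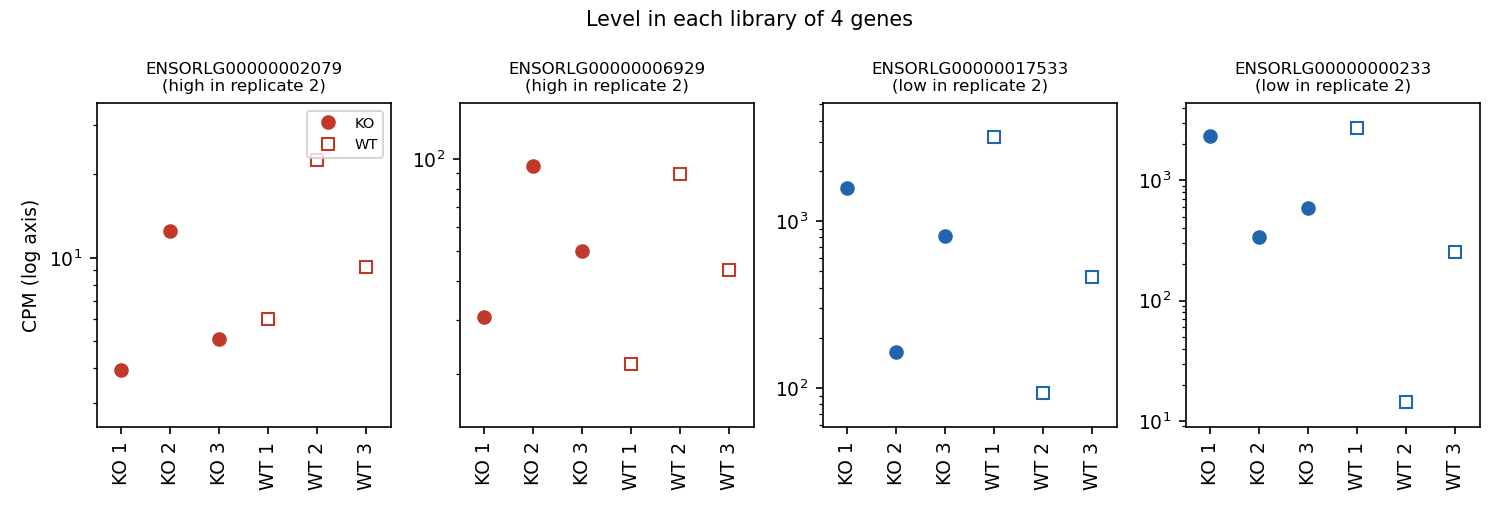
CPM on a log axis for 4 genes in each of the 6 libraries, knockout (KO) as filled circles and wild type (WT) as open squares. ENSORLG00000002079 and ENSORLG00000006929 stand highest in replicate 2 of each genotype, and ENSORLG00000017533 and ENSORLG00000000233 stand lowest in it.

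Replicates 1 and 3 also differed from each other in the same direction in both genotypes for most of the 66 genes, which the rule did not ask for. Replicate 1 was above replicate 3 in both genotypes for 34 genes and below it in both for 18, and the order differed between genotypes for 14. The share with the same order was 78.8%, against 64.6% of all genes of at least 5 CPM. The rule bounds both of these libraries, so the share is a description. The 34 genes with replicate 1 on top had a median level of 90.1 CPM, and the median gene was 1.24-fold higher in replicate 1 than in replicate 3 in the knockout and 1.69-fold higher in the wild type. The 18 genes with replicate 3 on top were scarcer, with a median of 13.1 CPM, and their median excess of replicate 3 over replicate 1 was 1.21-fold in the knockout and 1.20-fold in the wild type. By the rule of this group applied to replicate 1, 9 of the 66 genes also counted as high in replicate 1, and 3 counted as high in replicate 3.

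The 11 genes high in replicate 2 were scarcer. Their means ran from 6.02 to 55.0 CPM with a median of 10.1 CPM, and 0 reached 100 CPM. Summed, they had 131, 285 and 143 CPM in knockout replicates 1, 2 and 3 and 133, 324 and 153 CPM in wild type replicates 1, 2 and 3. Replicate 2 stood above the others in each genotype, while the sums of replicates 1 and 3 lay close together. In single genes these replicates could differ. By the same rule, 1 of the 11 also counted as low in replicate 1, and 1 as low in replicate 3. The median gene was 2.18-fold higher in replicate 2 than in the mean of replicates 1 and 3 in the knockout and 2.10-fold higher in the wild type. In 10 of the 11 the log2 difference was less than 0.5 apart between the genotypes.

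ENSORLG00000002079 had the largest smallest ratio in this direction. It had 3.93, 12.5 and 5.12 CPM in knockout replicates 1, 2 and 3, against 5.997, 22.5 and 9.24 CPM in wild type replicates 1, 2 and 3. Replicate 2 was 2.43-fold above the nearest other library in the knockout and 2.43-fold in the wild type. The most abundant gene of this direction, ENSORLG00000006929, had 30.6, 95.01 and 50.2 CPM in knockout replicates 1, 2 and 3 and 21.4, 89.4 and 43.6 CPM in wild type replicates 1, 2 and 3. In both genes replicate 2 was highest, then replicate 3, then replicate 1, in each genotype.

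Only 2 of the 11 genes had a smallest ratio of 2 or more. The gene just inside the threshold, at 1.502, had 7.74, 12.4 and 8.23 CPM in knockout replicates 1, 2 and 3 and 7.98, 12.5 and 5.19 CPM in wild type replicates 1, 2 and 3. The gene just outside it, at 1.495, had 14.7, 31.7 and 21.2 CPM in the knockout and 31.5, 67.0 and 28.9 CPM in the wild type. Replicates 1 and 3 kept the same order in both genotypes for 7 of the 11, with replicate 1 above in 3 and replicate 3 above in 4.

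**Figure D2:**
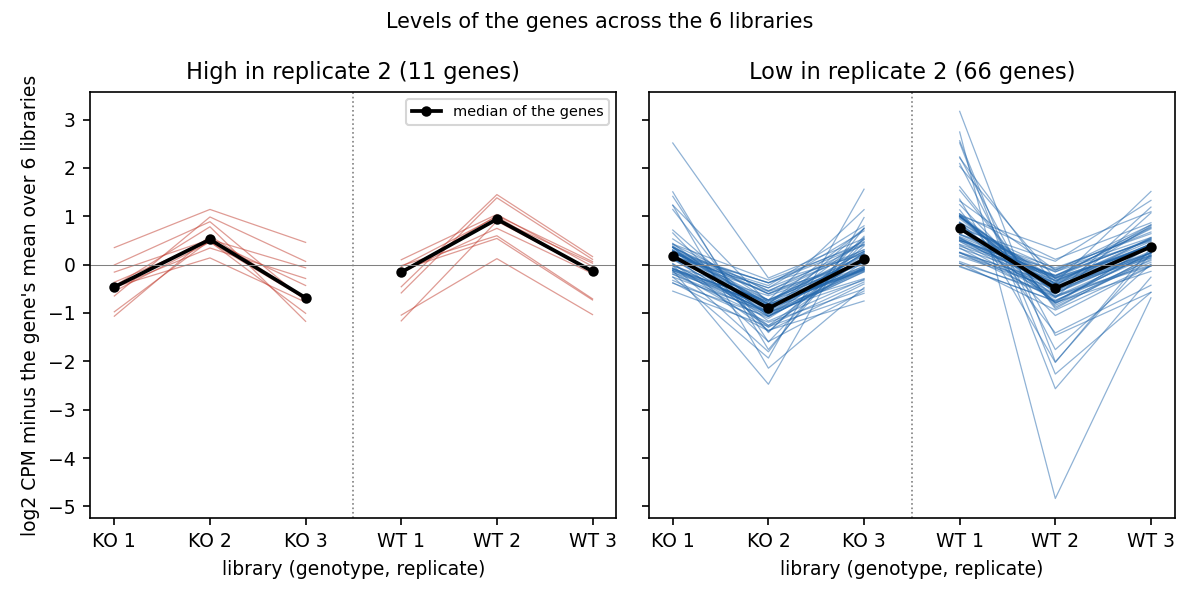
Log2 CPM of each gene minus its own mean over the 6 libraries, for the 11 genes high (left) and the 66 genes low (right) in replicate 2, with knockout (KO) libraries before wild type (WT) libraries; each thin line is 1 gene and the black line is the median of the genes. The median peaks at replicate 2 in the left panel and dips there in the right panel in both genotypes, as the rule requires, and in the right panel it is highest in wild type replicate 1.

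The lists of genes with a deviating replicate 2 overlapped in part between the genotypes. Of 14413 genes of at least 5 CPM, 244 had replicate 2 at least 1.5-fold below both other libraries in the knockout, and 216 in the wild type. The 66 shared genes were 27.0% of the knockout list and 30.6% of the wild type list. For high values the lists held 56 genes in the knockout and 153 in the wild type, and the 11 shared genes were 19.6% and 7.19% of them. The lists were made from the values that the rule used, so the shares describe the overlap and are not a test of it. A gene short of 1.5-fold in either genotype drops out of the overlap, so the shares depend on the fold. Going opposite ways were 2 genes, low in knockout replicate 2 and high in wild type replicate 2, with 0 the other way round. Whether that is fewer than unrelated lists would share was not tested.

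Replicate 2 did not hold the most genes of this kind. Applied to replicate 1, the same rule gave 24 genes high and 59 low in both genotypes, 83 in all, against 77 for replicate 2. Applied to replicate 3 it gave 25 high and 17 low, 42 in all. The share of low genes was 66 of 77 for replicate 2, 59 of 83 for replicate 1 and 17 of 42 for replicate 3.

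**Figure D3:**
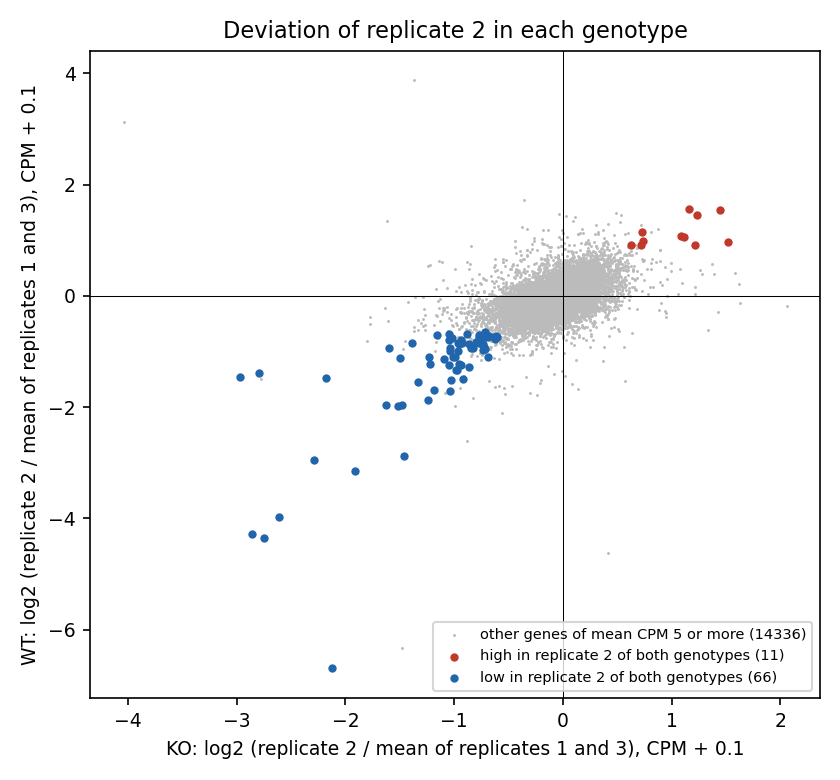
Log2 ratio of replicate 2 to the mean of replicates 1 and 3, with 0.1 CPM added to each value, in the knockout (KO, horizontal axis) and in the wild type (WT, vertical axis) for genes of at least 5 CPM. The 11 high genes lie at the upper right and the 66 low genes at the lower left, and 2 of the other genes passed the fold in opposite directions.

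A principal component analysis of log2 CPM placed the genes within the variation of whole libraries. The second component held 9.78% of the variance, with scores of -11.2, 23.6 and -11.99 for knockout replicates 1, 2 and 3 and -17.6, 28.3 and -11.2 for wild type replicates 1, 2 and 3. The 77 genes were 0.428% of the genes tested and carried 9.48% of the squared loadings of that component and 34 of its 100 largest loadings. The rule chose them for the contrast that this component scores, so a share of loadings above their share of genes was built in. On the first component, which separated knockout from wild type, they carried 0.272% of the squared loadings and 0 of the 100 largest. With the 77 genes left out, the second component still set replicate 2 apart, at 22.1 in the knockout and 27.0 in the wild type, against -16.0 to -7.38 in the other knockout and wild type libraries. It then held 9.04% of the variance. These scores and loadings share their values with the rule. They describe how far the pattern reaches beyond the 77 genes and are not a test.

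Whether genotype also shifted these genes was asked with the contrast of knockout against wild type, which the rule did not use. The test was edgeR's quasi-likelihood test across 18011 genes, which all 77 genes entered, with p-values adjusted by Benjamini-Hochberg over all of them and called under 0.05. Among all tested genes 34.6% were called, 15.9% higher and 18.7% lower in the knockout. Among tested genes of at least 5 CPM, the level the rule asked for, 36.0% were called. Of the 11 genes high in replicate 2, 1 was higher in the knockout and 0 were lower. Of the 66 genes low in replicate 2, 0 were higher and 3 were lower. At an unadjusted p under 0.05 in edgeR, 0 of the 11 were lower and 0 of the 66 were higher as well. By DESeq2 and by limma-voom both of these counts were also 0. In the other directions edgeR had 1 of the 11 higher and 8 of the 66 lower at that unadjusted p. These counts are not set against a share of all genes.

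The shares called at an adjusted p under 0.05 lay below the background, but the rule bears on them. It picked genes with a wide spread inside each genotype, and this fit sets the genotype difference against that spread. How far this changed the number of calls was not tested. The median standard error of the log2 fold change was 0.48 for the 11 genes and 0.36 for the 66, against 0.16 for all genes of at least 5 CPM. Deviations from the genotype means correlated between same-numbered libraries, also with these genes left out, and the fit without a block does not use that pairing. With the replicate number as a block, which compares knockout with wild type within each number, the median standard errors were 0.14 and 0.13, against 0.12. In that fit 48.4% of all tested genes were called, 23.6% higher and 24.8% lower in the knockout, and of those of at least 5 CPM 51.1%. Of the 11 genes, 2 were then higher and 5 lower. Of the 66, 8 were higher and 26 lower. The rule asked for deviations that agree between the genotypes, which the block then removes, so the spread left in this fit is not independent of the choice of genes. The calls made without the block were all made with it too.

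The same rule applied to the other replicates gave sets with their own counts in the fit without a block, where 15.9% of all tested genes were higher and 18.7% lower in the knockout. Of the 24 genes high in replicate 1 of both genotypes, 1 was higher and 1 lower, and of the 59 low in it 0 were higher and 48 lower. Of the 25 genes high in replicate 3, 0 were higher and 7 lower, and of the 17 low in it 4 were higher and 2 lower. All of these genes were picked for differences between replicates within each genotype, and differences between the sets were not tested. Sets picked in this way thus held shares of calls both below and above those of all genes.

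The gene that rose among the 11 was ENSORLG00000001908. It had 11.2, 19.3 and 12.02 CPM in knockout replicates 1, 2 and 3, against 4.24, 9.52 and 4.27 CPM in wild type replicates 1, 2 and 3. Every knockout library was above every wild type library, so the pool pattern and the genotype difference stood side by side. The difference of knockout minus wild type was 1.38 ± 0.36 on the log2 scale (fitted value ± standard error, edgeR adjusted p = 0.0187), and 1.43 ± 0.14 in the blocked fit (edgeR adjusted p = 1.81e-05). The call was lost without knockout replicate 2, where the log2 fold change was 1.06, and without wild type replicate 3, where it was 1.18. It was also lost without replicate 3 in both genotypes, at 1.30. This gene was chosen for description after its values were seen, as were the genes that fell.

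Among the 66, ENSORLG00000015167 fell. It had 4.19, 2.52 and 4.06 CPM in knockout replicates 1, 2 and 3, against 12.4, 7.62 and 13.1 CPM in wild type replicates 1, 2 and 3. The groups did not overlap, and replicate 2 was the lowest library of each. Knockout minus wild type was -1.46 ± 0.25 on the log2 scale (standard error, edgeR adjusted p = 0.00161). ENSORLG00000009464 had 7.69, 4.22 and 6.80 CPM in knockout replicates 1, 2 and 3 and 19.9, 10.4 and 17.6 CPM in wild type replicates 1, 2 and 3, again without overlap. Here the log2 difference was -1.20 ± 0.27 (standard error, edgeR adjusted p = 0.00678). This call was lost without replicate 3 in both genotypes, where the difference was -1.18. The remaining gene that fell had 6.67, 3.34 and 6.54 CPM in the knockout and 14.5, 9.06 and 21.7 CPM in the wild type. Its log2 difference was -1.29 ± 0.33 (standard error, edgeR adjusted p = 0.0161). It lost its call without wild type replicate 3, and also without replicate 3 in both genotypes. These 3 were scarce genes, with means between 7.30 and 11.1 CPM, and all had smallest ratios under 2.

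The 4 genes chosen by ratio and abundance were not called in the fit without a block. ENSORLG00000017533 averaged 894 ± 750 TMM-scaled CPM in the knockout and 1181 ± 1604 in the wild type (SD, n = 3 each), and the fitted log2 difference was -0.40 ± 1.55 (standard error, edgeR adjusted p = 0.871). TMM scaling divides by library totals adjusted for composition. ENSORLG00000000233 averaged 1148 ± 1158 TMM-scaled CPM in the knockout and 949 ± 1433 in the wild type (SD, n = 3 each), and the fitted log2 difference was 0.27 ± 1.91 (standard error). In the fit without a block the difference of both was smaller than its standard error. With the block, ENSORLG00000017533 was at 0.37 ± 0.57 and ENSORLG00000000233 at 1.82 ± 1.49 on the log2 scale (standard errors, edgeR adjusted p = 0.662 and 0.435), and limma-voom put ENSORLG00000000233 at 2.005. ENSORLG00000002079 had a log2 difference of -0.66 ± 0.66 without the block and -0.63 ± 0.14 with it (standard errors, edgeR adjusted p = 0.00325 with the block). ENSORLG00000006929 had a log2 difference of 0.34 ± 0.68 without the block and 0.41 ± 0.11 with it (standard errors, edgeR adjusted p = 0.00767 with the block).

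The steepest low genes showed no call in either fit. For the 5 with a smallest ratio of 3 or more, the log2 fold change ran from -1.51 to 0.15 without the block and from -0.81 to 0.37 with it. Their median standard error was 0.56 with the block. Among all genes of at least 5 CPM, 36.0% were called without the block and 51.1% with it. With the block, 33 of the 58 low genes with a smallest ratio between 1.5 and 2 were called, and 1 of the 8 at 2 or more. The 26 low genes called lower with the block had log2 fold changes from -1.46 to -0.37, and the 8 called higher from 0.34 to 0.77.

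**Figure D4:**
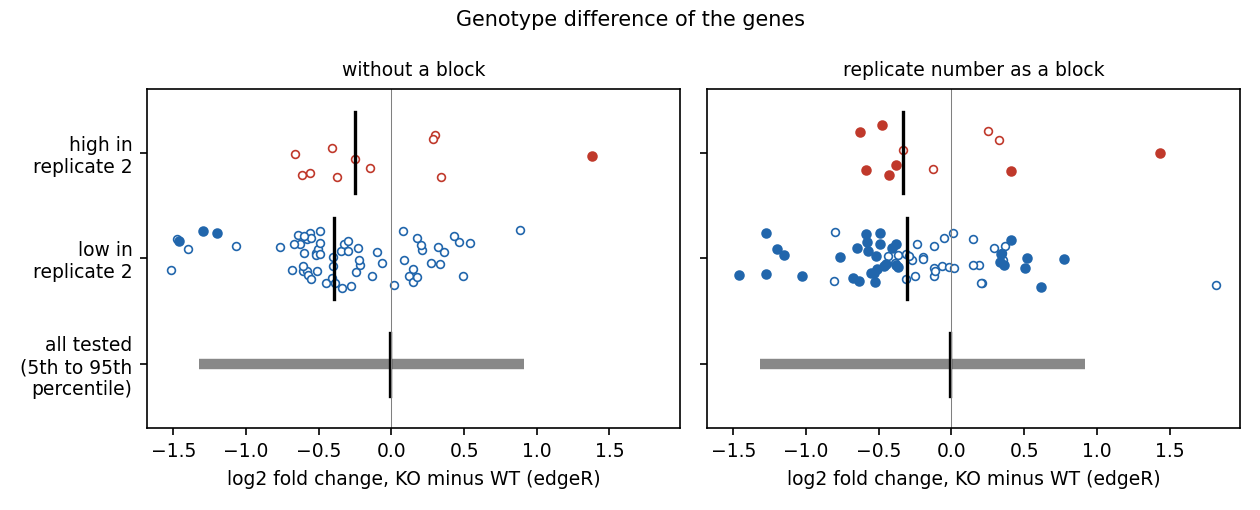
Log2 fold change of knockout minus wild type for each of the 11 genes high and the 66 genes low in replicate 2, without a block (left) and in the fit blocked by replicate number (right); filled points were called at adjusted p under 0.05, black lines are medians, and the grey bar spans the central 90% of all tested genes. The medians lie at -0.25 and -0.39 without the block and at -0.33 and -0.30 with it, and 4 and 41 points are filled.

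The genes low in replicate 2 leaned towards lower levels in the knockout, and the difference was widest in replicate 1. Their median log2 fold change was -0.39, against -0.01 for all tested genes, and 47 of the 66 lay below 0, against 48.5% of all genes of at least 5 CPM. Within numbers, on TMM-scaled CPM, knockout replicate 1 was below wild type replicate 1 in 53 of the 66, with a median log2 difference of -0.47. Knockout replicate 2 was below wild type replicate 2 in 40, with a median of -0.17, and knockout replicate 3 was below wild type replicate 3 in 39, with a median of -0.13. The same medians over all genes of at least 5 CPM were 0.03, 0.02 and 0.03. Without wild type replicate 1 the median log2 fold change of the 66 was 0.09, in a fit in which the low replicate 2 is 1 of 2 wild type libraries, and without replicate 1 in both genotypes it was -0.16. Without knockout replicate 2 it was -0.09, which follows from removing a library chosen for its low values. In 33 of the 66 the knockout was lower in all 3 numbers and in 10 it was higher in all 3, against 34.4% and 38.4% of all genes of at least 5 CPM.

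For the 11 genes high in replicate 2 no direction prevailed. The median log2 fold change was -0.25, with 4 genes above 0 and 7 below. The knockout was lower in all 3 numbers for 5 genes and higher in all 3 for 4. The median was 0.20 without wild type replicate 2, a shift that follows from removing a library chosen for its high values.

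In nearly all of these genes the pool difference was wider than the genotype difference, which the rule favours by asking for at least 1.5-fold between pools. Both replicate 2 libraries lay above all 4 others in 10 of the 11 genes and below all 4 others in 57 of the 66. The fitted genotype difference was larger in size than the mean deviation of replicate 2 in 1 of the 11 and 5 of the 66. Knockout and wild type libraries did not overlap in 1 of the 11 and 3 of the 66, against 48.9% of all tested genes. The rule asks for libraries spread within each genotype, and its effect on this count was not tested. The median size of the genotype log2 fold change was 0.38 for the 11 genes and 0.46 for the 66, against 0.32 for all genes of at least 5 CPM.

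With replicate 2 left out of both genotypes, the genotype contrast used only libraries between which these genes had not been asked to differ. The rule still bounds those libraries through replicate 2, so this fit is not free of the choice of genes. In that fit 19.5% of all tested genes were called, 8.83% higher and 10.7% lower, and of those of at least 5 CPM 20.7%. Of the 11 genes 1 was higher and 0 lower, with 1 higher and 0 lower at an unadjusted p under 0.05 in edgeR. Of the 66, 1 was higher and 8 were lower, with 4 higher and 18 lower at that unadjusted p. The counts at the unadjusted p are not set against a share of all genes, and the shares above are for the adjusted p. The median log2 fold change was -0.34 for the 11 and -0.41 for the 66, and the median standard errors of 0.26 and 0.23 were still above the 0.19 of all genes of at least 5 CPM.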

How the data were processed

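The deposited table holds raw counts per Ensembl gene ID, 1 column per library, whole numbers with no normalization by the authors. STAR and mm10, a mouse build, are the aligner and build named per the submitters' processing notes, while every ID belongs to medaka, so no coordinates are given. The counter, annotation and use of strand are not stated in the labels or the file, so genes that share reads could not be marked. Libraries were made with TruSeq reagents from 500 ng of total RNA, per the labels' protocols. Library codes in the headers matched columns to samples, and 0 columns belonged to other samples. RefSeq's gene table (assembly ASM223467v1) carries no Ensembl IDs, so the marker lists drawn up could not be used.

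Genotypes were compared with edgeR 4.0.16 in R 4.3.3 (filterByExpr with a minimum count of 10, TMM, robust quasi-likelihood fit). Standard errors were taken as absolute log2 fold change over the square root of F. The fit without a block was also run on simulated counts. These were drawn with no link between same-numbered libraries, so that run does not bear on genes chosen for such a link. Alternatives were DESeq2 1.42.0, limma-voom (limma 3.58.1), other scalings, filters and rules, thinning, left-out libraries, and the replicate number as a block. Deviations from genotype means correlated across genes with r of 0.35 to 0.43 between same-numbered libraries of the titles. Between others r was -0.24 to -0.14 (0.34 to 0.39 and -0.22 to -0.14 without the 77 genes). Deviations sum to 0 within a genotype, so the negative values follow from the positive ones and add no support. Every same-numbered pair was over 0.1, so the numbers were taken to pair the libraries. The fit without a block does not use that pairing. Log2 CPM for principal components used a prior count of 2.

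The genes and tests were chosen with earlier results of these data known. Genes named in each direction are those with the largest smallest ratio and the highest mean CPM, and then genes called between genotypes, with at most 2 IDs that rose or fell.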

Additional observations from a re-analysis of the deposited data

How the results depend on the processing

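The number of genes depended on the rule by construction: 103 high and 370 low at the looser fold tried, 2 and 8 at a fold of 2, 21 and 105 at a minimum of 1 CPM, 2 and 39 at 20 CPM, and 17 and 55 on TMM-scaled CPM, of which 11 and 55 were among the 77. At the looser fold tried, edgeR called 39 of the 103 high genes between genotypes, 23 higher and 16 lower in the knockout. Of the 370 low genes it called 75, 19 higher and 56 lower. Among all tested genes 34.6% were called, and 36.0% of those of at least 5 CPM. The share of high genes called was therefore not below the background at that fold. At a minimum of 1 CPM the calls were 4 higher and 1 lower of 21 high genes, and 2 higher and 7 lower of 105 low genes. On TMM-scaled CPM the high genes had 2 and 2. At a fold of 2 edgeR called 0 high and 0 low genes, with 0 at an unadjusted p under 0.05 and 0 by DESeq2 and limma-voom. At 20 CPM edgeR called 0 high and 0 low genes, with 0 and 4 at an unadjusted p under 0.05. DESeq2 called 0 high and 1 low at that minimum, and limma-voom 0 high and 2 low. Over all genes, in either direction, DESeq2 made 6392 calls and limma-voom 6135. The background shares given here are for the adjusted p in edgeR, and none is given for the unadjusted p. With the replicate number as a block, the 11 genes had 2 higher and 5 lower and the 66 had 8 and 26, of 8720 calls over all genes against 6223 without it. Limma-voom gave 5 lower among the 66, and an adjusted p under 0.01 left 0 of the 11 higher and 3393 calls over all genes.

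Leaving out 1 library gave 0 to 1 higher and 0 lower of the 11, 0 to 1 higher and 2 to 11 lower of the 66 (11 without wild type replicate 2), and 4400 to 5702 calls over all genes. The median log2 fold change then ran from -0.88 to 0.20 for the 11 and from -0.66 to 0.09 for the 66. Leaving out a number in both genotypes gave 3957, 3522 and 3667 calls for replicates 1, 2 and 3. The 66 had 1 higher and 8 lower without replicate 2 and 1 lower without replicate 3, where the 11 had 0 higher. Leaving out replicates 1 and 3 in this way was chosen after seeing the data.

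Of the 4 genes chosen by ratio and abundance, each changed sign somewhere. ENSORLG00000017533 was at 0.36 by limma-voom, 0.37 with the replicate block, 0.06 without knockout replicate 2, 0.95 without replicate 1 in both genotypes, and -1.23 to 1.78 with 1 library left out (1.78 without wild type replicate 1). ENSORLG00000000233 was at -0.97 without knockout replicate 1, -0.30 without wild type replicate 2 and -0.19 without wild type replicate 3, in a range of -0.97 to 3.20. ENSORLG00000002079 was at 0.089 without wild type replicate 2, in a range of -1.36 to 0.089. ENSORLG00000006929 was at -0.24 without knockout replicate 2 and -0.03 without wild type replicate 1, in a range of -0.24 to 1.03. Leaving out 1 replicate 2 library removes a value that the rule chose as high or low, so a shift in those fits follows from the rule. The cause of the other changes was not tested.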
